A study of Danio rerio with 9 samples.

Results

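RNA sequencing was used to compare 3 libraries of entpd5a+ cells with 3 libraries of col9a2+ cells sorted from the notochord sheath of zebrafish, which are 6 of the 9 libraries in the series. The libraries were chosen by their titles alone, where the first population is spelled enptd5a+. Both populations came from fish of the EK strain at 13 days of age, without a stated treatment, and were collected by fluorescence from reporters for entpd5a and for col9a2. The remaining 3 libraries, from cells positive for both, were not compared here. They entered only the count filter, the size factors and the estimate of the spread between replicates. The labels call all fish wild type although the design describes transgenic animals, and they give neither the reporter alleles nor the number of cells or fish behind a library. Since nothing says whether replicates were separate sorts or fish, p values measure the spread between these libraries, which may be technical.

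The notochord sheath is a layer of epithelial cells around the vacuolated core of the notochord, and it secretes the fibrous casing that stiffens the axis of the embryo. In teleost fish parts of this casing mineralize in rings that prefigure the vertebral bodies, while the stretches between them stay cartilage-like. The gene col9a2 encodes a chain of collagen IX, which sits on the collagen II fibrils of cartilage, and entpd5a encodes a secreted enzyme that splits nucleotides, releases phosphate and is needed for bone mineral in zebrafish.

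Library totals of the series ran from 39955994 to 81471212 counts, and libraries held between 17850 and 21996 genes with at least 1 count. The col9a2+ library 3 and the entpd5a+ libraries 2 and 3 belong to the deeper group of libraries, at 67788360 counts or more, and the col9a2+ libraries 1 and 2 and entpd5a+ library 1 to the shallower one. Per-library values are listed in replicate order as CPM, counts scaled to 1000000 counts per library after normalization. Differences are log2 fold changes of entpd5a+ over col9a2+ cells ± their standard error. The summed level of 70 stress response genes followed that division, at 12980, 13490 and 58800 CPM in col9a2+ cells and 15680, 75080 and 99270 CPM in entpd5a+ cells. The sort genes followed the labels. COL9A2 stood at 7738, 11560 and 9398 CPM in col9a2+ cells and 429, 73.1 and 64.7 CPM in entpd5a+ cells, where it fell, with a log2 fold change of -5.66 ± 0.89 (adjusted p = 0.00729), a log2 fold change that became -7.12 on leaving out entpd5a+ library 1. ENTPD5, as the name table writes it with no paralog letter, stood at 253, 452 and 129 CPM in col9a2+ cells and 5678, 3955 and 3142 CPM in entpd5a+ cells, where it rose, with a log2 fold change of 3.94 ± 0.63 (adjusted p = 0.00804). Each adjusted p is that of edgeR's quasi-likelihood test over all genes. A call described as lost on leaving out certain libraries was lost with any 1 of them left out. A called gene given without such a clause kept its call without each of the 9 libraries, and its fold then moved by at most 1.5 times. In bulk libraries fewer cells of a type and less RNA per cell cannot be told apart.

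Of 19039 genes tested, 955 were called, which is 5.02%. Of these 510 were higher in entpd5a+ cells (2.68% of genes tested) and 445 were lower (2.34%). Libraries of both populations did not overlap in 24.7% of all genes tested. The median log2 difference of all genes was 0.02. Leaving out a single library changed the number of called genes by over 1.5 times in 4 cases. It was 483, 353 and 574 on leaving out col9a2+ library 1, 2 or 3, and 403 on leaving out entpd5a+ library 2. Among the 5 shallower libraries of the series alone 202 genes were called, 65 higher and 137 lower, and among the 4 deeper ones 39, 5 higher and 34 lower. In the fit of the shallower libraries entpd5a+ cells have 1 library, and in that of the deeper ones col9a2+ and double-positive cells have 1 each. In both fits the spread of such a population is taken to equal that of the rest. For the deeper fit the rest is entpd5a+ libraries 2 and 3 alone. All 955 genes kept their direction in both, but they were called on these same libraries, so this is no separate support. With the depth group as a term in a fit of all 9 libraries 1242 genes were called, 891 of the 955 among them. Of the called genes named here HAS1, MDGA2, FDPS, LSS, PAX9, FAM20C and fam20ca did not pass in that fit (adjusted p = 0.082, 0.0685, 0.051, 0.0852, 0.0553, 0.0578 and 0.0945). In a fit of the 6 libraries alone PCBD1, LSS, sphk2, krt18a.1, krt94, COL1A2 and NOG (ENSDARG00000058819) did not pass (adjusted p = 0.0554, 0.0551, 0.0508, 0.0883, 0.0747, 0.0502 and 0.0624). With other size factors (RLE) LSS and that copy of NOG did not pass (adjusted p = 0.0505 and 0.0551), nor did MDGA2 without a count filter (adjusted p = 0.0619).

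**Figure D1:**
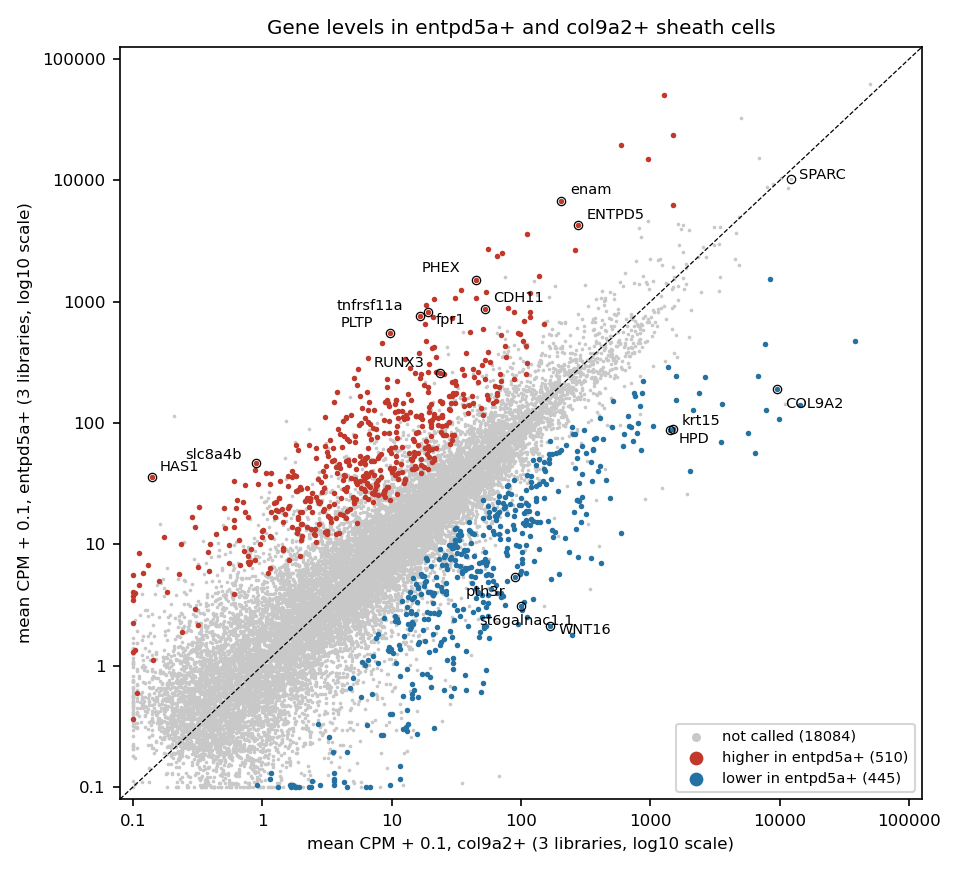
Mean level of each of the 19039 genes tested in col9a2+ (horizontal axis) and entpd5a+ cells (vertical axis), as CPM + 0.1 on log scales, 3 libraries each. The 510 genes called higher in entpd5a+ cells are red, the 445 called lower are blue, uncalled genes are grey, the dashed line marks equal levels, and named genes carry a ring.

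Collagens made up much of the libraries, and the collagens behind that share differed. They held 9.25%, 9.1% and 12.5% of counts in the col9a2+ libraries and 13.7%, 21.7% and 10.7% in the entpd5a+ libraries and the shares overlapped. Of 52 collagen genes tested, a list drawn up after values were seen that includes the sort gene COL9A2, 6 rose and 10 fell, against 2.68% and 2.34% of all genes. From 3 to 7 were higher (fewest without col9a2+ libraries 1 or 2 or entpd5a+ library 2) and 3 to 10 lower (fewest without entpd5a+ library 2) on leaving out 1 library. COL2A1 (ENSDARG00000069093), the main collagen of cartilage, stood at 28730, 35310 and 50520 CPM in col9a2+ cells and 1143, 188 and 82.3 CPM in entpd5a+ cells and fell, with a log2 fold change of -6.34 ± 1.12 (adjusted p = 0.0121), a call lost on leaving out entpd5a+ library 2 and a log2 fold change that became -8.14 on leaving out entpd5a+ library 1. The 2 genes named COL10A1, the collagen of hypertrophic cartilage and in fish also of bone, went the other way. COL10A1 (ENSDARG00000054753) stood at 2417, 564 and 872 CPM in col9a2+ cells and 64650, 56660 and 29670 CPM in entpd5a+ cells and rose, with a log2 fold change of 5.29 ± 0.89 (adjusted p = 0.0097), a log2 fold change that became 6.13 on leaving out col9a2+ library 1. COL10A1 (ENSDARG00000101535) was 32.5-fold higher (adjusted p = 0.0103). The collagen I chain col1a1a, at 5624, 3678 and 5818 CPM in col9a2+ cells and 25360, 49440 and 23140 CPM in entpd5a+ cells, differed by a log2 fold change of 2.7 ± 0.71 and did not pass the test (adjusted p = 0.0614), although it passed without a count filter (adjusted p = 0.0432), at a mean of at least 10 CPM (0.0411), with DESeq2 (0.000389) and without double-positive library 2 (0.046). The other collagen I chain given here, COL1A2, was 15.8-fold higher (adjusted p = 0.0392), a call lost on leaving out col9a2+ libraries 1, 2 or 3 or double-positive library 3 or entpd5a+ libraries 2 or 3. Its log2 fold change became 4.68 on leaving out col9a2+ library 3. SPARC, a collagen-binding matrix protein of bone and basement membranes, was high in both populations, at 10800, 17460 and 8228 CPM in col9a2+ cells and 13310, 9810 and 7429 CPM in entpd5a+ cells, and the libraries overlapped.

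Among lists of known bone and cartilage genes, 15 of 19 bone genes rose and none fell. From 10 to 16 were higher on leaving out 1 library. Of 27 cartilage genes 16 fell and none rose. From 10 to 16 were lower (fewest without entpd5a+ library 2) on leaving out 1 library. These counts include a sort gene each, ENTPD5 and COL9A2, and come to 14 of 18 and 15 of 26 when it is left out. Median log2 differences were 4.52 and -3.92. The rest of the 36 lists cover other cell functions, and some of their called members are described next by role. These lists share members with the bone and cartilage lists, so counts are not all separate. For example, COL2A1 (ENSDARG00000069093) is in the cartilage and notochord lists, and PANX3 in the bone and extracellular nucleotide lists.

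**Figure D2:**
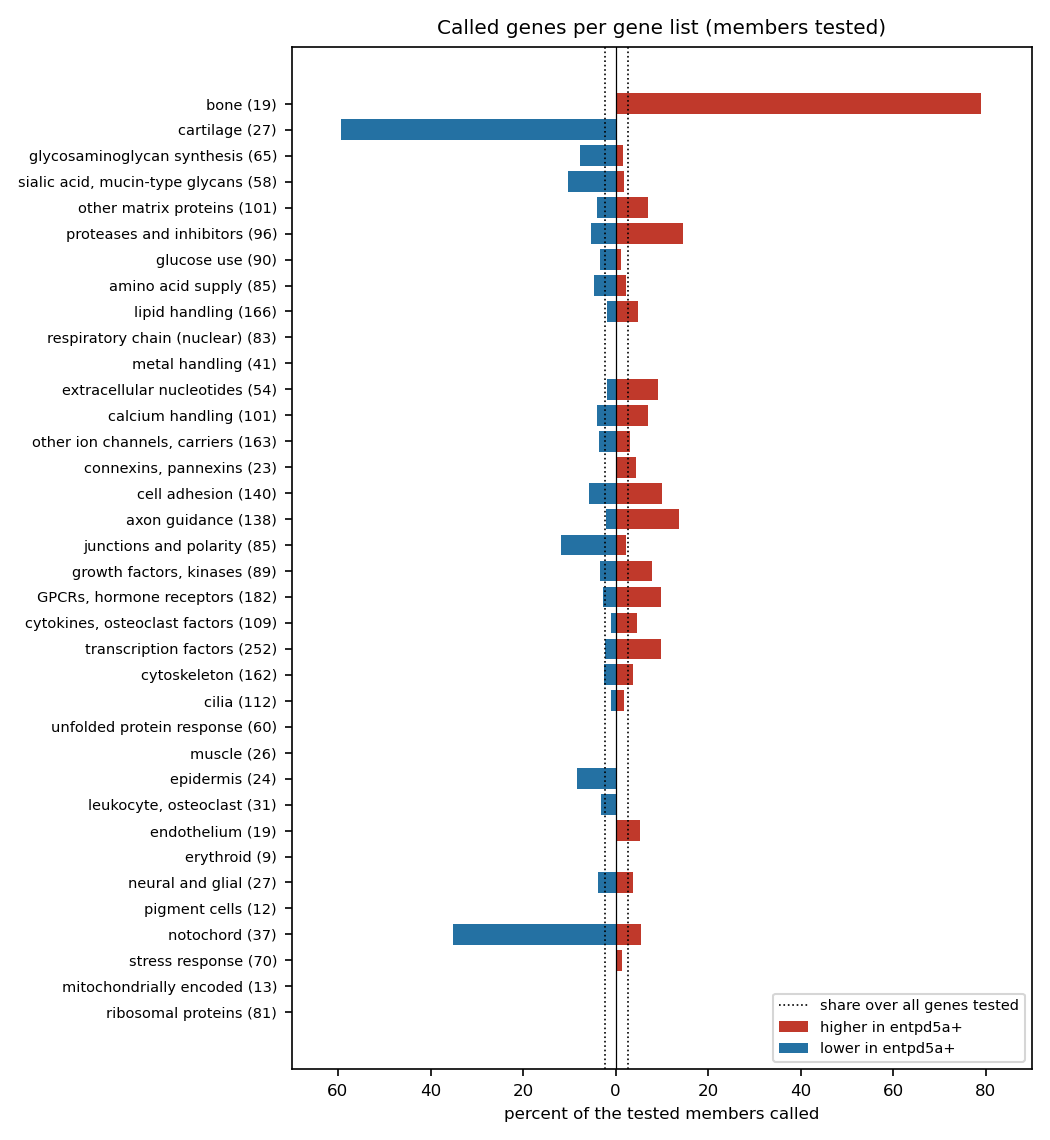
Share of the tested members of each of 36 gene lists that were called higher (red, to the right) or lower (blue, to the left) in entpd5a+ cells, in percent, with the number of members tested in brackets. Dotted lines mark the shares over all genes tested, 2.68% and 2.34%, and the bone list (78.9% called) and the cartilage list (59.3% called) stand farthest from them.

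Genes known from tooth enamel were among those with the largest rises. A list drawn up after values were seen holds genes of enamel matrix and its processing, and also the bone gene spp1. Of its 12 tested genes 7 rose, spp1 among them, and none fell, against 2.68% higher and 2.34% lower over all genes. From 4 to 7 were higher (fewest without col9a2+ libraries 2 or 3) on leaving out 1 library. Of these genes scpp1 is also counted in the bone list and FAM20A in the calcium list, so the counts of these lists are not separate. The secreted calcium-binding phosphoproteins of vertebrates include enamel and bone proteins, and 3 of them rose. The enamelin gene enam stood at 405, 95.9 and 115 CPM in col9a2+ cells and 8169, 8287 and 4006 CPM in entpd5a+ cells and rose, with a log2 fold change of 5.05 ± 0.93 (adjusted p = 0.0144), a call lost on leaving out col9a2+ libraries 2 or 3 and a log2 fold change that became 6.01 on leaving out col9a2+ library 1. The related gene scpp1 stood at 30.7, 9.96 and 21.8 CPM in col9a2+ cells and 699, 763 and 792 CPM in entpd5a+ cells and rose, with a log2 fold change of 5.17 ± 0.6 (adjusted p = 0.00269). The third, spp1, which encodes the bone phosphoprotein osteopontin, was 36.1-fold higher (adjusted p = 0.0108), a log2 fold change that became 5.89 on leaving out col9a2+ library 1. In each of them the lowest entpd5a+ library lay above the highest col9a2+ library. The gene mmp20b, of the enamel protease family, stood at 0.129, 0.77 and 0.995 CPM in col9a2+ cells and 26, 30.6 and 34.8 CPM in entpd5a+ cells and rose, with a log2 fold change of 5.58 ± 0.77 (adjusted p = 0.00463). Kinases of the FAM20 family phosphorylate secreted proteins, and FAM20A, whose product activates FAM20C, was 14.9-fold higher (adjusted p = 0.0107). The kinase genes FAM20C and fam20ca were 12-fold higher (adjusted p = 0.043), a call lost on leaving out col9a2+ libraries 1, 2 or 3 or double-positive library 2 or entpd5a+ libraries 2 or 3 and a log2 fold change that became 2.96 on leaving out entpd5a+ library 2, and 15.7-fold higher (adjusted p = 0.0426), a call lost on leaving out col9a2+ libraries 1, 2 or 3 or entpd5a+ libraries 2 or 3. Not all enamel genes followed, since ambn, the ameloblastin gene, was at or below 0.34 CPM in all 6 libraries. For odam, another secreted protein of tooth epithelium, the levels were 0, 6.63 and 0 CPM in col9a2+ cells and 262, 0.127 and 4.25 CPM in entpd5a+ cells, so that the high level rests on 1 library, and it did not pass the test (adjusted p = 0.414).

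Genes of proteases and their inhibitors were called in both directions. Of 96 such genes 14 rose and 5 fell, which is 19.8% called. From 3 to 15 were higher (fewest without col9a2+ library 1) and 3 to 5 lower (fewest without col9a2+ libraries 1, 2 or 3 or double-positive libraries 1 or 2 or entpd5a+ library 3) on leaving out 1 library. SERPINE2, an inhibitor of thrombin-like proteases, stood at 90.9, 77.4 and 61.5 CPM in col9a2+ cells and 274, 355 and 430.5 CPM in entpd5a+ cells and rose, with a log2 fold change of 2.2 ± 0.33 (adjusted p = 0.00634). RECK, a membrane-bound inhibitor of matrix metalloproteases, was 3.98-fold higher (adjusted p = 0.0108), a call lost on leaving out col9a2+ libraries 1 or 2. The carboxypeptidase gene CPZ, whose product binds Wnt proteins, was 7.43-fold higher (adjusted p = 0.004). In the other direction CPXM1 (ENSDARG00000098158), of the same carboxypeptidase family, stood at 161, 274 and 224 CPM in col9a2+ cells and 16.3, 6.05 and 11.6 CPM in entpd5a+ cells and fell, with a log2 fold change of -4.28 ± 0.44 (adjusted p = 0.00177). BMP1 (ENSDARG00000028071), a protease that trims procollagens, was 3.67-fold lower (adjusted p = 0.00867). Among genes of hyaluronan, a long sugar chain of soft matrix, HYAL4, of the hyaluronidase family, and CEMIP, which aids its breakdown, were chosen after their values were seen. HYAL4 was 14.3-fold higher (adjusted p = 0.00643). CEMIP stood at 4.03, 6.26 and 3.27 CPM in col9a2+ cells and 36.8, 76.7 and 32.1 CPM in entpd5a+ cells and rose, with a log2 fold change of 3.43 ± 0.43 (adjusted p = 0.00364). The synthase gene HAS1 had 5 counts in the col9a2+ libraries together and 0.54, 11.2 and 95.4 CPM in entpd5a+ cells, so its level rests mostly on library 3, and it rose, with a log2 fold change of 10.01 ± 2.01 (adjusted p = 0.0208), a call lost on leaving out col9a2+ libraries 1, 2 or 3 or entpd5a+ library 3 and a log2 fold change that became 10.91 on leaving out col9a2+ library 2 and 9.21 on leaving out col9a2+ library 3 and 10.61 on leaving out entpd5a+ library 1 and 7.26 on leaving out entpd5a+ library 3.

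Other matrix genes formed a mixed group, with 7 of 101 higher and 4 lower, which is 10.9% called. From 1 to 8 were higher (fewest without col9a2+ library 2 or entpd5a+ library 2) and 1 to 7 lower (fewest without col9a2+ library 2 or entpd5a+ library 2, most without entpd5a+ library 1) on leaving out 1 library, and 7 lower with the depth term. The thrombospondin gene thbs2b was 10.8-fold higher (adjusted p = 0.00838). The matricellular genes CCN4 and CCN5, whose products signal from the matrix, moved in opposite directions. CCN4 stood at 39.2, 3.87 and 11.7 CPM in col9a2+ cells and 422, 633 and 377 CPM in entpd5a+ cells and rose, with a log2 fold change of 4.71 ± 0.92 (adjusted p = 0.0187), a call lost on leaving out col9a2+ libraries 2 or 3 or entpd5a+ library 2 and a log2 fold change that became 5.94 on leaving out col9a2+ library 1. CCN5 stood at 170.1, 358 and 348 CPM in col9a2+ cells and 26.1, 9.53 and 9.78 CPM in entpd5a+ cells and fell, with a log2 fold change of -4.27 ± 0.57 (adjusted p = 0.00425), a log2 fold change that became -4.92 on leaving out entpd5a+ library 1. Neither gene's populations overlapped. The basement membrane collagen col4a6 was 11.1-fold lower (adjusted p = 0.00177), and LOXL3 (ENSDARG00000076306), a collagen cross-linking oxidase, was 35.7-fold lower (adjusted p = 0.00177). QSOX1, which makes disulfide bonds in secreted proteins, was 14.1-fold lower (adjusted p = 0.00177), and CLU, which encodes the secreted chaperone clusterin, was 10.2-fold lower (adjusted p = 0.00445). The actinodin gene and2, known as a fibre protein of fish fins, stood at 2331, 2718 and 1335 CPM in col9a2+ cells and 176, 139.5 and 66.6 CPM in entpd5a+ cells and fell, with a log2 fold change of -4.06 ± 0.78 (adjusted p = 0.017), a call lost on leaving out col9a2+ library 2 or entpd5a+ libraries 2 or 3.

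Of the genes that build and decorate sugar chains more were called lower than higher. In the glycosaminoglycan list 5 of 65 fell and 1 rose, which is 9.23% called. From 0 to 1 were higher and 0 to 5 lower (fewest without col9a2+ library 2) on leaving out 1 library, and 9 lower with the depth term. The sulfate carrier SLC26A2, which supplies sulfate to cartilage proteoglycans, stood at 71.8, 91.7 and 70.5 CPM in col9a2+ cells and 20.4, 20.1 and 12.3 CPM in entpd5a+ cells and fell, with a log2 fold change of -2.15 ± 0.38 (adjusted p = 0.0124), a call lost on leaving out col9a2+ library 2. CHPF2, a chondroitin polymerase partner, was 3.69-fold lower (adjusted p = 0.0126), a call lost on leaving out col9a2+ library 2. The exception, ext1c, belongs to the family that extends heparan sulfate and was 9.98-fold higher (adjusted p = 0.00917), a call lost on leaving out col9a2+ library 2. In the list of sialic acid and mucin-type glycan genes 6 of 58 fell and 1 rose. From 0 to 1 were higher and 2 to 7 lower (fewest without col9a2+ library 2) on leaving out 1 library. Here st6galnac1.1, a sialyltransferase gene, stood at 150.2, 95.2 and 52.9 CPM in col9a2+ cells and 2.61, 2.68 and 3.67 CPM in entpd5a+ cells and fell, with a log2 fold change of -5.05 ± 0.53 (adjusted p = 0.00177). GALNT16, which starts mucin-type chains, was 16.9-fold lower (adjusted p = 0.0107), whereas the related gene galnt14 was 11.3-fold higher (adjusted p = 0.0138), a call lost on leaving out col9a2+ library 2 or entpd5a+ library 2. B3GNT7, of the keratan sulfate and lactosamine branch, was 20.5-fold lower (adjusted p = 0.0168), a call lost on leaving out col9a2+ library 2 or entpd5a+ library 2.

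Genes of the breakdown route of tyrosine, best known from liver, were among those that fell. This list and that of tetrahydrobiopterin, a cofactor of several hydroxylases, were drawn up after values were seen, so their counts are a description. Of 6 genes of the route all had log2 differences below 0 and 2 passed the test, with a median of -2.03, and of 8 biopterin genes all were below 0 and 3 passed, with a median of -1.45. Over all genes tested 9356 of 19039 were below 0, and 2.34% were called lower. The 2 calls of the route were 0 without col9a2+ library 2 or entpd5a+ libraries 2 or 3, and 4 without entpd5a+ library 1. TAT, which opens tyrosine breakdown, stood at 815, 843 and 738 CPM in col9a2+ cells and 144, 60.9 and 97.4 CPM in entpd5a+ cells and fell, with a log2 fold change of -2.99 ± 0.62 (adjusted p = 0.0248), a call lost on leaving out col9a2+ libraries 1, 2 or 3 or entpd5a+ libraries 2 or 3. HPD, the next enzyme, stood at 1481, 1815 and 968 CPM in col9a2+ cells and 153, 43.4 and 64.2 CPM in entpd5a+ cells and fell, with a log2 fold change of -4.03 ± 0.76 (adjusted p = 0.0152), a call lost on leaving out col9a2+ library 2 or entpd5a+ libraries 2 or 3 and a log2 fold change that became -4.72 on leaving out entpd5a+ library 1. In both genes even the lowest col9a2+ library was above the highest entpd5a+ library. The later steps HGD, GSTZ1 and FAH did not pass the test over all libraries. HGD stood at 453, 578 and 366 CPM in col9a2+ cells and 184, 47 and 57 CPM in entpd5a+ cells (adjusted p = 0.0775), and entpd5a+ library 1 was the highest of its group there as in TAT and HPD. Adjusted p values of GSTZ1 and FAH were 0.278 and 0.154. GSTZ1 passed with the depth term (adjusted p = 0.0365), HGD at a mean of at least 10 CPM (0.0468) and with DESeq2 (0.00686), both of them without entpd5a+ library 1 (0.0237 and 0.0212), and FAH without double-positive library 1 (0.0422). In the cofactor pathway GCH1, which opens biopterin synthesis, stood at 165, 172 and 149 CPM in col9a2+ cells and 11.7, 14.8 and 20.1 CPM in entpd5a+ cells and fell, with a log2 fold change of -3.38 ± 0.37 (adjusted p = 0.00213). The recycling genes QDPR (ENSDARG00000040190) and PCBD1 were 15.4-fold lower (adjusted p = 0.0123), a log2 fold change that became -4.78 on leaving out entpd5a+ library 1, and 7.15-fold lower (adjusted p = 0.0333), a call lost on leaving out col9a2+ libraries 1 or 2 or entpd5a+ libraries 2 or 3 and a log2 fold change that became -3.77 on leaving out entpd5a+ library 1. PTS and SPR (ENSDARG00000004406), which complete the synthesis, did not pass (adjusted p = 0.733 and 0.732).

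**Figure D3:**
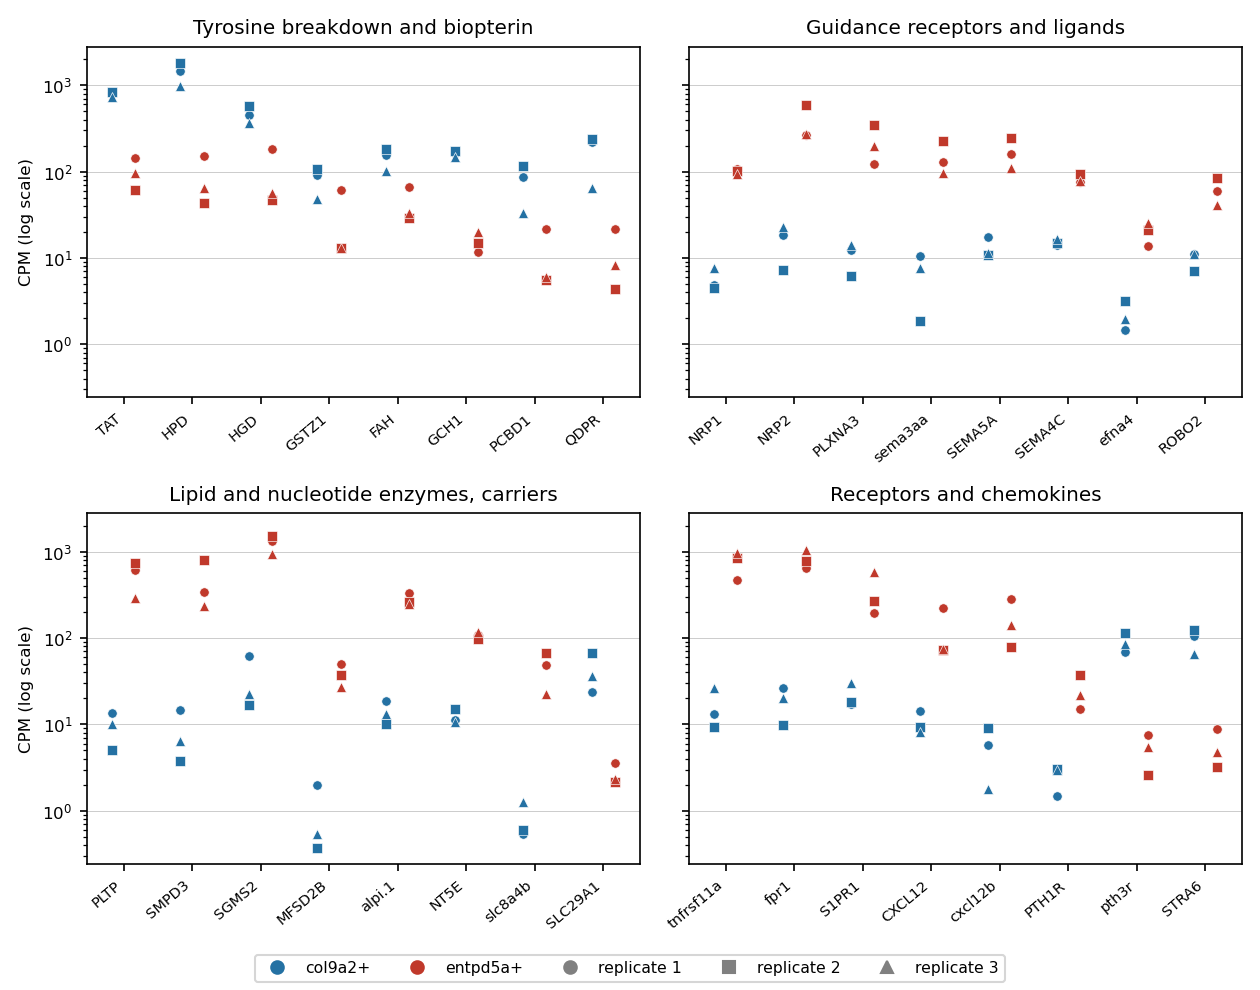
CPM (log scale) of 32 genes in each of the 3 col9a2+ (blue) and 3 entpd5a+ libraries (red), with a marker shape per replicate; NRP2 is ENSDARG00000096546, QDPR is ENSDARG00000040190 and SLC29A1 is ENSDARG00000054447. HPD lies between 968 and 1815 CPM in the col9a2+ libraries and between 43.4 and 153 CPM in the entpd5a+ libraries, while tnfrsf11a lies between 9.44 and 26.7 CPM and between 469 and 958 CPM.

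Of 166 genes of lipid transport and enzymes 8 rose and 3 fell, which is 6.63% called against 5.02% of all genes. From 5 to 8 were higher (fewest without col9a2+ libraries 1 or 2 or entpd5a+ library 2) and 2 to 10 lower (most without entpd5a+ library 3) on leaving out 1 library, and 7 lower with the depth term. PLTP, a phospholipid transfer protein, stood at 13.7, 5.12 and 10.1 CPM in col9a2+ cells and 618, 736 and 289.5 CPM in entpd5a+ cells and rose, with a log2 fold change of 5.83 ± 0.6 (adjusted p = 0.00177). SMPD3, which cuts sphingomyelin at the membrane and is needed for mineral in mouse bone, was 55.1-fold higher (adjusted p = 0.00575), a log2 fold change that became 6.49 on leaving out col9a2+ library 1 and 5.11 on leaving out entpd5a+ library 2. SGMS2, which makes sphingomyelin, stood at 62.7, 16.9 and 22.4 CPM in col9a2+ cells and 1327, 1521 and 934 CPM in entpd5a+ cells and rose, with a log2 fold change of 5.21 ± 0.78 (adjusted p = 0.00632), a log2 fold change that became 6.0 on leaving out col9a2+ library 1. The signalling lipid sphingosine-1-phosphate is made from the same lipid class, and its genes given here, other than S1PR1, were chosen after their values were seen. The kinase gene sphk2 was 4.39-fold higher (adjusted p = 0.0325), a call lost on leaving out col9a2+ libraries 1, 2 or 3 or double-positive library 2 or entpd5a+ libraries 2 or 3 and a log2 fold change that became 1.45 on leaving out entpd5a+ library 3. MFSD2B, an exporter of the lipid, and its receptor gene S1PR1 were 40-fold higher (adjusted p = 0.00698), a log2 fold change that became 6.37 on leaving out col9a2+ library 1, and 16-fold higher (adjusted p = 0.00394), a log2 fold change that became 3.36 on leaving out entpd5a+ library 3. The other exporter spns2 showed overlapping levels, at 61.6, 96.5 and 88 CPM in col9a2+ cells and 47.2, 103 and 67.6 CPM in entpd5a+ cells (adjusted p = 0.88). On the lower side ACACA, which starts fatty acid synthesis, was 5.52-fold lower (adjusted p = 0.00801), and ptgs1, a prostaglandin synthase gene, was 15.9-fold lower (adjusted p = 0.00205).

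Of 19 tested sterol synthesis genes, a list drawn up after values were seen, 17 were below 0 in entpd5a+ cells, against 9356 of 19039 over all genes tested. Of the 19, 3 passed the test, and the median log2 difference was -1.61. The number lower was 0 without col9a2+ library 1 or entpd5a+ library 2, 1 without col9a2+ library 2 or entpd5a+ library 1, and 10 without entpd5a+ library 3. The 3 called over all libraries were FDPS, 3.47-fold lower (adjusted p = 0.0354), a call lost on leaving out col9a2+ libraries 1 or 2 or entpd5a+ libraries 1 or 2, LSS, 4.71-fold lower (adjusted p = 0.0456), a call lost on leaving out col9a2+ libraries 1, 2 or 3 or double-positive library 2 or entpd5a+ libraries 1 or 2 and a log2 fold change that became -2.85 on leaving out entpd5a+ library 3, and TM7SF2, 3.7-fold lower (adjusted p = 0.0147), a call lost on leaving out col9a2+ library 1 or entpd5a+ library 2. Summed over the pathway the levels were 1922, 1556 and 1069 CPM in the col9a2+ libraries and 242, 413 and 966 CPM in the entpd5a+ libraries. The populations did not overlap, but entpd5a+ library 3 came close to col9a2+ library 3. TMEM97, a membrane protein of sterol handling, was 5.12-fold lower (adjusted p = 0.00809).

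Of 53 genes that handle extracellular nucleotides, the sort gene ENTPD5 left out, 4 rose and 1 fell. With that gene 5 of 54 rose and 1 fell, which is 11.1% called against 5.02% of all genes. The order of the pathway runs from release of ATP to its stepwise dephosphorylation and the adenosine receptors. PANX3, a channel that releases ATP and is also counted in the bone list, was 51.2-fold higher (adjusted p = 0.00445), a log2 fold change that became 6.3 on leaving out col9a2+ library 1. The phosphatase gene alpi.1 stood at 18.5, 9.98 and 13.1 CPM in col9a2+ cells and 336, 260.5 and 249 CPM in entpd5a+ cells and rose, with a log2 fold change of 4.35 ± 0.43 (adjusted p = 0.00177). NT5E, which makes adenosine from AMP, stood at 11.2, 15.2 and 10.6 CPM in col9a2+ cells and 109, 96.9 and 119 CPM in entpd5a+ cells and rose, with a log2 fold change of 3.14 ± 0.44 (adjusted p = 0.00493). ADORA2B, an adenosine receptor, was 10.3-fold higher (adjusted p = 0.00896), a call lost on leaving out col9a2+ library 2. The member that fell, SLC29A1 (ENSDARG00000054447), carries adenosine across the membrane and stood at 24, 68 and 36.4 CPM in col9a2+ cells and 3.58, 2.15 and 2.34 CPM in entpd5a+ cells, where it fell, with a log2 fold change of -3.99 ± 0.53 (adjusted p = 0.00419). In NT5E the values within each population lay close together, and the populations were far apart.

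Calcium genes moved in both directions, with 7 of 101 higher and 4 lower, which is 10.9% called. From 2 to 7 were higher (fewest without col9a2+ libraries 1, 2 or 3 or entpd5a+ library 2) and 2 to 5 lower (fewest without col9a2+ library 2 or entpd5a+ library 2) on leaving out 1 library. The sodium-calcium exchanger slc8a4b stood at 0.535, 0.596 and 1.26 CPM in col9a2+ cells and 49.1, 67.8 and 22.6 CPM in entpd5a+ cells and rose, with a log2 fold change of 5.85 ± 0.67 (adjusted p = 0.00257). Genes of the intracellular stores fell, namely ITPR3, a release channel, 18.5-fold lower (adjusted p = 0.00337), and ATP2A3, a pump that fills the stores, 4.96-fold lower (adjusted p = 0.00618). TRPV4, a cation channel of cartilage, was 6.22-fold lower (adjusted p = 0.012), a call lost on leaving out col9a2+ library 2 or entpd5a+ library 2. Of 163 other channels and ion carriers 5 rose and 6 fell, which is 6.75% called against 5.02% of all genes. From 1 to 5 were higher (fewest without entpd5a+ library 2) and 5 to 8 lower on leaving out 1 library. The carbonic anhydrases divided, as CA12, a membrane enzyme, was 21.6-fold higher (adjusted p = 0.00802), and CA6, a secreted one, stood at 92.5, 109.7 and 86.7 CPM in col9a2+ cells and 8.76, 11.4 and 8.35 CPM in entpd5a+ cells and fell, with a log2 fold change of -3.34 ± 0.39 (adjusted p = 0.00269). The volume-regulated channel gene lrrc8da was 8.98-fold lower (adjusted p = 0.004), and atp1b3b, a sodium pump subunit, was 5.45-fold lower (adjusted p = 0.00472). For KCNK5 (ENSDARG00000012390), a potassium leak channel, the levels were 8.41, 7.3 and 16.5 CPM in col9a2+ cells and 50.5, 42.3 and 68 CPM in entpd5a+ cells, and it rose, with a log2 fold change of 2.32 ± 0.52 (adjusted p = 0.0345), a call lost on leaving out col9a2+ libraries 1 or 2 or entpd5a+ libraries 1, 2 or 3.

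Axon guidance genes were called higher in 19 of 138 cases and lower in 3, which is 15.9% called. From 9 to 19 were higher (fewest without col9a2+ library 2) and 1 to 6 lower (fewest without entpd5a+ library 2, most without double-positive library 1) on leaving out 1 library, and 7 lower with the depth term. Over all genes tested 2.68% were higher and 2.34% lower. These secreted cues and their receptors steer growing axons, and many also act on bone and vessel cells. Among receptors NRP1 stood at 4.88, 4.54 and 7.59 CPM in col9a2+ cells and 106, 102 and 93.3 CPM in entpd5a+ cells and rose, with a log2 fold change of 4.15 ± 0.63 (adjusted p = 0.00643). Both genes named NRP2 rose too, ENSDARG00000096546 being 23.2-fold higher (adjusted p = 0.00798), and ENSDARG00000038446 8.29-fold higher (adjusted p = 0.0184), a call lost on leaving out col9a2+ libraries 1 or 2 or entpd5a+ library 2 and a log2 fold change that became 3.77 on leaving out col9a2+ library 3. PLXNA3, the plexin that signals beside neuropilins, had between 6.13 and 14.1 CPM in col9a2+ cells and 123, 345 and 199.6 CPM in entpd5a+ cells and rose, with a log2 fold change of 4.36 ± 0.64 (adjusted p = 0.00599). ROBO2, a receptor for Slit proteins, was 6.36-fold higher (adjusted p = 0.0079). Among ligands sema3aa, a secreted semaphorin that binds neuropilin, was 22.6-fold higher (adjusted p = 0.0115). The membrane semaphorins SEMA5A and SEMA4C were 12.9-fold higher (adjusted p = 0.0023), and 5.4-fold higher (adjusted p = 0.00446). The ephrin gene efna4 was 9.13-fold higher (adjusted p = 0.00451). On the lower side SEMA5B (ENSDARG00000061471) was 39.1-fold lower (adjusted p = 0.0124), a call lost on leaving out entpd5a+ library 2. SLIT1 (ENSDARG00000099446) was 9.88-fold lower (adjusted p = 0.0367), a call lost on leaving out col9a2+ libraries 1, 2 or 3 or entpd5a+ libraries 1 or 2 and a log2 fold change that became -2.66 on leaving out col9a2+ library 3 and -4.1 on leaving out entpd5a+ library 3. The count of lower genes also includes NOG (ENSDARG00000053528), which encodes the BMP antagonist noggin and not one of these cues or receptors. It stood at 606, 836 and 682 CPM in col9a2+ cells and 112, 74.1 and 92.6 CPM in entpd5a+ cells and fell, with a log2 fold change of -2.93 ± 0.39 (adjusted p = 0.00408).

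Adhesion molecules changed in both directions, with 14 of 140 higher and 8 lower, which is 15.7% called. From 6 to 15 were higher (fewest without col9a2+ library 2) and 5 to 8 lower (fewest without col9a2+ libraries 1 or 2 or entpd5a+ library 2) on leaving out 1 library. CDH11, a cadherin of osteoblasts, stood at 74, 17.8 and 66.4 CPM in col9a2+ cells and 819.6, 1235 and 578 CPM in entpd5a+ cells and rose, with a log2 fold change of 4.06 ± 0.67 (adjusted p = 0.00896). The cadherin gene cdh6 was 18.6-fold higher (adjusted p = 0.00568). CD151 (ENSDARG00000038288) and CD81 (ENSDARG00000022437), tetraspanins that organize membrane proteins, were 6.69-fold higher (adjusted p = 0.00493), and 34.9-fold higher (adjusted p = 0.0097), a call lost on leaving out col9a2+ library 2 and a log2 fold change that became 5.92 on leaving out col9a2+ library 1 and 4.53 on leaving out entpd5a+ library 1. The immunoglobulin-type adhesion genes IGLON5 and NRCAM fell, IGLON5 from 24.4, 41 and 47.3 to 0.856, 1.25 and 1.59 CPM, which is 30.4-fold lower (adjusted p = 0.00177), and NRCAM being 10.4-fold lower (adjusted p = 0.00562). MDGA2, of the same superfamily, had between 0 and 0.62 CPM in col9a2+ cells and 13.8, 25.8 and 20.8 CPM in entpd5a+ cells, and it rose, with a log2 fold change of 6.53 ± 1.59 (adjusted p = 0.0462), a call lost on leaving out col9a2+ libraries 1 or 3 or double-positive library 2 or entpd5a+ libraries 1, 2 or 3 and a log2 fold change that became 5.94 on leaving out col9a2+ library 1 and 9.15 on leaving out col9a2+ library 2.

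Of the genes of epithelial junctions and polarity more were called lower than higher, with 10 of 85 lower and 2 higher, which is 14.1% called. From 0 to 2 were higher (fewest without col9a2+ libraries 1 or 2 or entpd5a+ library 2) and 3 to 10 lower (fewest without col9a2+ library 2 or entpd5a+ library 2) on leaving out 1 library, and 20 lower with the depth term. Both desmoplakin genes, which anchor keratin at desmosomes, were lower. DSP (ENSDARG00000022309) stood at 226, 352 and 238 CPM in col9a2+ cells and 41.9, 59.1 and 53.5 CPM in entpd5a+ cells and fell, with a log2 fold change of -2.4 ± 0.34 (adjusted p = 0.00499). DSP (ENSDARG00000076673) was 7.53-fold lower (adjusted p = 0.00698). The polarity gene crb3b was 25.5-fold lower (adjusted p = 0.00425), a log2 fold change that became -5.35 on leaving out entpd5a+ library 1, and the claudin cldn3c, a tight junction protein, was 12.3-fold lower (adjusted p = 0.0189), a call lost on leaving out col9a2+ libraries 1 or 2 or entpd5a+ library 2 and a log2 fold change that became -4.42 on leaving out entpd5a+ library 1. Keratins were called in both directions. The keratin krt15 stood at 1511, 1797 and 1187 CPM in col9a2+ cells and 117, 41.9 and 109.9 CPM in entpd5a+ cells and fell, with a log2 fold change of -4.07 ± 0.55 (adjusted p = 0.00455). The keratin krt94 was 3.9-fold lower (adjusted p = 0.0432), a call lost on leaving out any library but entpd5a+ library 3, without which the log2 fold change became -2.6. However, krt18b was 6.29-fold higher (adjusted p = 0.0132), a call lost on leaving out col9a2+ library 2. Likewise krt18a.1 was 4.17-fold higher (adjusted p = 0.0441), a call lost on leaving out any library but entpd5a+ library 1. Of 24 tested epidermal markers 2 were called lower and 0 higher, which is 8.33% called. From 0 to 3 were lower (fewest without col9a2+ libraries 1 or 2 or entpd5a+ library 2) on leaving out 1 library, and 2 higher and 6 lower with the depth term. Their summed levels were 14100, 15340 and 14620 CPM in col9a2+ cells and 5057, 6840 and 10760 CPM in entpd5a+ cells, which did not overlap. Log2 differences were below 0 in 17 of the 24 and above 0 in 7, with a median of -0.64, against 0.02 over all genes. Libraries of both populations did not overlap in 12 of the 24, against 24.7% of all genes tested. AGR2, a secretory epithelial gene on that list, was 50.2-fold lower (adjusted p = 0.019), a call lost on leaving out col9a2+ libraries 1 or 2 or entpd5a+ library 2 and a log2 fold change that became -7.22 on leaving out entpd5a+ library 1, while krt4, a keratin of surface epidermis, overlapped at 2188, 2320 and 3121 CPM in col9a2+ cells and 1654, 2295 and 4517 CPM in entpd5a+ cells. The part of epidermal RNA in the junction and keratin results was not tested.

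Growth factor and receptor kinase genes were higher in 7 of 89 and lower in 3, which is 11.2% called. From 3 to 13 were higher (fewest without col9a2+ libraries 1, 2 or 3, most without double-positive library 1) and 1 to 3 lower (fewest without col9a2+ libraries 1 or 2 or entpd5a+ library 2) on leaving out 1 library. PDGFC, a platelet-derived growth factor, stood at 2.08, 4.05 and 4.13 CPM in col9a2+ cells and 53.2, 87.8 and 45.9 CPM in entpd5a+ cells and rose, with a log2 fold change of 4.19 ± 0.42 (adjusted p = 0.00177). Its receptor gene PDGFRA was 5.86-fold higher (adjusted p = 0.0223), a call lost on leaving out col9a2+ libraries 1, 2 or 3 or entpd5a+ library 2. The binding proteins of insulin-like growth factors IGFBP1 and IGFBP3 were 4.82-fold higher (adjusted p = 0.00815), and 5.73-fold higher (adjusted p = 0.0139), a call lost on leaving out col9a2+ libraries 1 or 3 or entpd5a+ library 2. The FGF-binding protein gene fgfbp2a was 46.8-fold higher (adjusted p = 0.00608). Among ligands of the EGF receptor egf fell and hbegfa rose. The former stood at 104, 147 and 168 CPM in col9a2+ cells and 14.1, 9.9 and 21.4 CPM in entpd5a+ cells, where it fell, with a log2 fold change of -3.21 ± 0.46 (adjusted p = 0.0052). The latter was 14.3-fold higher (adjusted p = 0.00962), a call lost on leaving out col9a2+ library 2. INHBB (ENSDARG00000040777), a subunit of activin B, was chosen after its values were seen and stood at 2.7, 4.35 and 4.03 CPM in col9a2+ cells and 74.3, 284 and 177 CPM in entpd5a+ cells, where it rose, with a log2 fold change of 5.6 ± 0.86 (adjusted p = 0.0069). TGFB3, a ligand of the same family, was 4.63-fold lower (adjusted p = 0.0124), and acvrl1, a type I receptor, was 16.9-fold higher (adjusted p = 0.00177).

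Wnt regulators and other signalling genes showed some of the smallest adjusted p values. The Wnt inhibitor gene dkk1a stood at 1.78, 2.29 and 1.13 CPM in col9a2+ cells and 37.1, 38.5 and 34 CPM in entpd5a+ cells and rose, with a log2 fold change of 4.4 ± 0.39 (adjusted p = 0.00177). KREMEN1, a receptor for Dickkopf proteins, stood at 9.19, 11.8 and 7.14 CPM in col9a2+ cells and 113, 165 and 136 CPM in entpd5a+ cells and rose, with a log2 fold change of 3.88 ± 0.39 (adjusted p = 0.00177). SCUBE2, which helps release hedgehog proteins, was 9.88-fold lower (adjusted p = 0.00547). Both genes of the ligand SHH fell too. SHH (ENSDARG00000068567) stood at 653, 989.6 and 731 CPM in col9a2+ cells and 61.3, 56.7 and 128 CPM in entpd5a+ cells and fell, with a log2 fold change of -3.27 ± 0.47 (adjusted p = 0.0051). SHH (ENSDARG00000038867) was 11.8-fold lower (adjusted p = 0.00599). INTU, a planar polarity and cilium gene, was 11.1-fold higher (adjusted p = 0.00177). The cilium list, which does not hold INTU, had 2 of 112 higher and 1 lower, which is 2.68% called against 5.02% of all genes. From 0 to 2 were higher (fewest without col9a2+ library 2 or entpd5a+ library 2) and 0 to 1 lower on leaving out 1 library.

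Genes of hormone and other G protein-coupled signals, a list that holds receptors and also other genes, rose in 18 of 182 and fell in 5, which is 12.6% called. Some of the called ones do not encode G protein-coupled receptors, among them the chemokine gene CXCL12, the retinol importer gene STRA6 and RGS2, a regulator of G protein signals. RGS2 was 45.7-fold lower (adjusted p = 0.00871), a log2 fold change that became -4.66 on leaving out col9a2+ library 1 and -6.26 on leaving out entpd5a+ library 1. The range of calls was as follows. From 5 to 17 were higher (fewest without col9a2+ library 2) and 2 to 7 lower (fewest without col9a2+ library 2 or entpd5a+ library 2) on leaving out 1 library, and 8 lower with the depth term. The receptors of parathyroid hormone moved in opposite directions. PTH1R, which mediates the hormone's action on bone, stood at 1.48, 3.06 and 3 CPM in col9a2+ cells and 14.9, 37 and 22.1 CPM in entpd5a+ cells and rose, with a log2 fold change of 3.3 ± 0.54 (adjusted p = 0.00867). The fish receptor gene pth3r stood at 69.6, 116 and 85.9 CPM in col9a2+ cells and 7.61, 2.59 and 5.5 CPM in entpd5a+ cells and fell, with a log2 fold change of -4.11 ± 0.47 (adjusted p = 0.00258). Every entpd5a+ library was above every col9a2+ library for PTH1R and below every one for pth3r. The chemokine genes CXCL12 and cxcl12b were 11.6-fold higher (adjusted p = 0.00754), a log2 fold change that became 2.8 on leaving out entpd5a+ library 1, and 30-fold higher (adjusted p = 0.0225), a call lost on leaving out col9a2+ libraries 1, 2 or 3 and a log2 fold change that became 4.29 on leaving out entpd5a+ library 1. ACKR3 (ENSDARG00000058179), which takes up that chemokine, was 8.07-fold higher (adjusted p = 0.0231), a call lost on leaving out col9a2+ libraries 1, 2 or 3 or entpd5a+ library 3 and a log2 fold change that became 2.22 on leaving out entpd5a+ library 3, whereas its signalling receptor gene CXCR4 (ENSDARG00000041959) overlapped and did not pass (adjusted p = 0.554). The receptor gene calcrla, of the calcitonin receptor family, was 8.26-fold higher (adjusted p = 0.00698). The formyl peptide receptor gene fpr1, known from phagocytes, stood at 26.7, 9.93 and 19.99 CPM in col9a2+ cells and 655, 784 and 1034 CPM in entpd5a+ cells and rose, with a log2 fold change of 5.45 ± 0.71 (adjusted p = 0.004). STRA6, a retinol importer, and RDH10 (ENSDARG00000058730), which oxidizes retinol, were 17.5-fold lower (adjusted p = 0.0163), a call lost on leaving out col9a2+ library 2 or entpd5a+ libraries 2 or 3, and 48.3-fold lower (adjusted p = 0.00177). The cytochrome gene CYP27C1, which converts vitamin A1 to A2 in fish, was 27.5-fold lower (adjusted p = 0.00177).

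The receptor for the osteoclast signal RANKL was high in entpd5a+ cells. Its gene tnfrsf11a, which encodes RANK, stood at 13.2, 9.44 and 26.7 CPM in col9a2+ cells and 469, 857 and 958 CPM in entpd5a+ cells and rose, with a log2 fold change of 5.53 ± 0.66 (adjusted p = 0.00295). Of 109 cytokine and osteoclast genes 5 rose and 1 fell, which is 5.5% called against 5.02% of all genes. From 2 to 10 were higher (fewest without col9a2+ libraries 2 or 3, most without entpd5a+ library 1) and 1 lower on leaving out 1 library. Of 4 genes known from RANK signalling in mouse osteoclasts that are given here, the adaptor gene sh3bp2 and EEIG1 (ENSDARG00000102566) rose, and TRAF6 and NFATC1 did not pass the test. The first stood at 1.07, 0.174 and 1.09 CPM in col9a2+ cells and 30.9, 59.1 and 32 CPM in entpd5a+ cells and rose, with a log2 fold change of 5.69 ± 1.15 (adjusted p = 0.0209), a call lost on leaving out col9a2+ libraries 1, 2 or 3 or entpd5a+ library 2. The second was 24-fold higher (adjusted p = 0.00756), a log2 fold change that became 5.7 on leaving out col9a2+ library 3. The adaptor gene TRAF6 differed by a log2 fold change of 0.29 ± 0.43 (adjusted p = 0.826), and the factor gene NFATC1, at 24.8, 28.7 and 51.8 CPM in col9a2+ cells and 49.5, 112 and 271 CPM in entpd5a+ cells, differed by a log2 fold change of 2.04 ± 0.6 and did not pass the test (adjusted p = 0.0913). NFATC1 passed with DESeq2 (adjusted p = 0.0196), with the replicate number as a term (0.0208) and without entpd5a+ library 1 (0.0281). The ligand gene tnfsf11 stayed at or below 1.64 CPM, and its decoy receptor tnfrsf11b overlapped, at 2.5, 3.68 and 4.7 CPM in col9a2+ cells and 2.32, 8.79 and 19.1 CPM in entpd5a+ cells. RANK is known from osteoclasts and other cells of blood origin, whose markers stood beside these values as follows. Summed over 31 leukocyte and osteoclast markers the levels were 165, 143 and 80.6 CPM in col9a2+ cells and 95.6, 116 and 161 CPM in entpd5a+ cells, which overlapped. Of them 0 rose and 1 fell, which is 3.23% called against 5.02% of all genes, and DESeq2 called 2 higher and 2 lower. Log2 differences were above 0 in 21 and below 0 in 10, with a median of 0.61, against 0.02 over all genes. The pan-leukocyte gene ptprc was at 0.428, 0.422 and 0.595 CPM in col9a2+ cells and 0.563, 1.31 and 1.44 CPM in entpd5a+ cells. The osteoclast enzyme gene ACP5 was at or below 1.24 CPM, and the macrophage receptor gene csf1ra at or below 2.52 CPM. BTK and PTPN6, signalling genes of blood cells chosen after their values were seen, were lower in entpd5a+ cells, BTK being 22.4-fold lower (adjusted p = 0.00177) and PTPN6 14.1-fold lower (adjusted p = 0.00179). Neither is among the called members of that list. In the other direction fpr1, known from phagocytes and also outside the list, was 43.7-fold higher (adjusted p = 0.004). The part of blood cell RNA in the rise of tnfrsf11a was not tested.

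Transcription factors of patterning rose in 25 of 252 and fell in 6, which is 12.3% called. With the replicate number as a term 48 were higher and 13 lower. Their summed levels were 10660, 12200 and 22250 CPM in col9a2+ cells and 14150, 28510 and 40130 CPM in entpd5a+ cells. These sums overlapped and were higher in the deeper libraries of each population. From 10 to 31 were higher (fewest without col9a2+ library 2 or entpd5a+ library 2) and 3 to 7 lower (fewest without col9a2+ library 2 or entpd5a+ library 2) on leaving out 1 library, and 12 lower with the depth term. Both genes named MEF2C, a factor of muscle and of hypertrophic cartilage, rose. MEF2C (ENSDARG00000029764) stood at 5.87, 4.57 and 4.92 CPM in col9a2+ cells and 64.3, 102 and 69.4 CPM in entpd5a+ cells and rose, with a log2 fold change of 3.94 ± 0.34 (adjusted p = 0.00177). MEF2C (ENSDARG00000009418) was 16-fold higher (adjusted p = 0.00179). RUNX3, of the family that includes the osteoblast factor, stood at 23.5, 18.2 and 29 CPM in col9a2+ cells and 353, 243 and 182 CPM in entpd5a+ cells and rose, with a log2 fold change of 3.46 ± 0.4 (adjusted p = 0.00259). Of the Dlx homeobox genes, which pattern the jaw and skeleton, DLX3 was 10.1-fold higher (adjusted p = 0.00463), DLX5 25.1-fold higher (adjusted p = 0.00631), and DLX2 (ENSDARG00000017174) 28.4-fold higher (adjusted p = 0.00632), a log2 fold change that became 5.72 on leaving out col9a2+ library 1. DLX6 had 0 counts in col9a2+ cells and 7.03, 7.05 and 2.44 CPM in entpd5a+ cells, at least 320-fold higher against a limit of 3 counts over the group (adjusted p = 0.012), a call lost without entpd5a+ library 2. Factors of the sclerotome, the source of the vertebral arches, were also higher, PAX1 (ENSDARG00000073814) being 21-fold higher (adjusted p = 0.0243), a call lost on leaving out col9a2+ libraries 1 or 2 or entpd5a+ libraries 2 or 3 and a log2 fold change that became 5.12 on leaving out col9a2+ library 3, and PAX9 4.77-fold higher (adjusted p = 0.0421), a call lost on leaving out col9a2+ libraries 1, 2 or 3 or entpd5a+ libraries 1, 2 or 3. The forkhead gene foxd2 was 16.7-fold higher (adjusted p = 0.00952). On the lower side MKX, a tendon factor, stood at 246, 431 and 359 CPM in col9a2+ cells and 65.2, 40.8 and 36.5 CPM in entpd5a+ cells and fell, with a log2 fold change of -2.86 ± 0.39 (adjusted p = 0.00436). MNX1, known from motor neurons and notochord, was 8.84-fold lower (adjusted p = 0.004), and vgll2b, a cofactor, was 17.5-fold lower (adjusted p = 0.00408). Notochord genes fell in 13 of 37 and rose in 2, which is 40.5% called. Their summed levels were 56870, 76120 and 78430 CPM in col9a2+ cells and 10380, 9272 and 16140 CPM in entpd5a+ cells, which did not overlap. This list shares COL2A1 (ENSDARG00000069093) and other called members with the cartilage list, so the counts of both are not separate. From 0 to 2 were higher (fewest without col9a2+ library 2) and 6 to 14 lower (fewest without entpd5a+ library 2) on leaving out 1 library. The notochord factor TBXT, at 54.6, 118 and 152 CPM in col9a2+ cells and 9.77, 16.6 and 19.2 CPM in entpd5a+ cells, fell, with a log2 fold change of -2.83 ± 0.52 (adjusted p = 0.0142), a call lost on leaving out col9a2+ library 2 or entpd5a+ library 2. The part of RNA from bone or sclerotome cells outside the sheath in the rises of bone and sclerotome genes was not tested.

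Several gene families had no called member. Of 60 genes of the unfolded protein response none was called by edgeR, 2 higher and 4 lower had an unadjusted p under 0.05, and DESeq2 called 0 higher and 1 lower. Of 83 nuclear genes of the respiratory chain none was called, 0 higher and 1 lower had an unadjusted p under 0.05, and DESeq2 called 1 lower. Their median log2 difference was -0.52, and their summed level in the shallower and deeper libraries differed within each population, at 11950, 13550 and 5823 CPM in col9a2+ cells and 12370, 5003 and 5320 CPM in entpd5a+ cells. Of 41 metal handling genes none was called, 3 higher had an unadjusted p under 0.05, and DESeq2 called 2 higher. Of 81 ribosomal protein genes and 13 genes of the mitochondrial genome none was called by either tool or had an unadjusted p under 0.05. Yet 79 of the ribosomal genes were below 0, with a median log2 difference of -0.64. Their summed level also differed between shallower and deeper libraries, at 55170, 100800 and 23610 CPM in col9a2+ cells and 81480, 18740 and 19890 CPM in entpd5a+ cells. Glucose use genes rose in 1 of 90 and fell in 3, which is 4.44% called against 5.02% of all genes. From 0 to 1 were higher and 0 to 2 lower (fewest without col9a2+ libraries 2 or 3 or entpd5a+ library 2) on leaving out 1 library. The cytoskeleton list had 6 of 162 higher and 4 lower, which is 6.17% called. From 1 to 8 were higher (fewest without col9a2+ library 2) and 2 to 4 lower (fewest without entpd5a+ library 2) on leaving out 1 library, and 11 higher with the depth term. MYO1D, a motor linked to left-right asymmetry in fish, chosen after its values were seen, was 7.41-fold higher (adjusted p = 0.00223). In the amino acid supply list 2 of 85 rose and 4 fell, which is 7.06% called. From 0 to 3 were higher (fewest without col9a2+ libraries 2 or 3 or entpd5a+ library 2) and 2 to 4 lower (fewest without entpd5a+ libraries 2 or 3) on leaving out 1 library.

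Copies of genes that share a name were mostly called the same way or singly. Of 1158 names shared by at least 2 tested IDs, 165 had a called ID, 19 had at least 2 IDs called in 1 direction, and 6 had IDs called in opposite directions. These 6, chosen for that pattern, were CADM1, HTRA3, MXRA8, NCS1, NOG and SLC7A10. Of the 6, 5 kept that pattern with RLE or upper-quartile factors and in the 6 libraries alone, 6 with the depth term, 2 with a minimum fold of 1.5, and 1 to 5 on leaving out 1 library. The copy NOG (ENSDARG00000058819), with an adjusted p of 0.049, lost its call on leaving out any 1 of the 9 libraries. SLC7A10, a carrier of small amino acids, is the name of ENSDARG00000051730, which stood at 21.1, 40.7 and 29.6 CPM in col9a2+ cells and 0.856, 0.127 and 0.698 CPM in entpd5a+ cells, and of ENSDARG00000008100, at 28.9, 29.8 and 31.6 CPM in col9a2+ cells and 73, 91.6 and 73.1 CPM in entpd5a+ cells. The former fell, with a log2 fold change of -5.78 ± 0.86 (adjusted p = 0.00605). The latter rose, with a log2 fold change of 1.39 ± 0.27 (adjusted p = 0.016), a call lost on leaving out col9a2+ libraries 1, 2 or 3 or entpd5a+ library 2. HTRA3, a secreted protease, was 20.8-fold higher (adjusted p = 0.004) for ENSDARG00000010925 and 13.4-fold lower (adjusted p = 0.00867), a log2 fold change that became -4.34 on leaving out entpd5a+ library 3, for ENSDARG00000052895. MXRA8, a membrane protein of matrix-producing cells, was 6.1-fold higher (adjusted p = 0.00534) for ENSDARG00000062129. ENSDARG00000062222 was 3.22-fold lower (adjusted p = 0.0243), a call lost on leaving out col9a2+ libraries 1, 2 or 3 or entpd5a+ libraries 1 or 2. Reads shared between near-identical copies were not traced.

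Markers of other cell types were measured in the same libraries. Muscle markers, with 0 of 26 called, summed to 809.8, 524 and 337 CPM in col9a2+ cells and 994, 164 and 2535 CPM in entpd5a+ cells, where entpd5a+ library 3 was the highest. Endothelial markers summed to 43.6, 17.1 and 45.7 CPM in col9a2+ cells and 93, 130.3 and 167 CPM in entpd5a+ cells, and the populations did not overlap. Of 19 endothelial genes 1 was called, which is 5.26% against 5.02% of all genes. Log2 differences were above 0 in 15 and below 0 in 4, with a median of 1.02, against 0.02 over all genes. The called gene sox18 was 35.3-fold higher (adjusted p = 0.0304), a call lost on leaving out col9a2+ libraries 1 or 2 or entpd5a+ libraries 2 or 3 and a log2 fold change that became 6.57 on leaving out col9a2+ library 3. FLI1, a vessel and blood factor on that list, stood at 16.5, 5.04 and 11.9 CPM in col9a2+ cells and 48, 67.1 and 63.4 CPM in entpd5a+ cells and did not pass over all libraries (adjusted p = 0.316), though it did in the 6 libraries alone (0.0257) and without double-positive library 1 (0.0402), while the vessel genes kdrl and cdh5 were at or below 7.53 and 1.95 CPM in all 6 libraries. The part of endothelial RNA in the rises of S1PR1, NRP1 and CXCL12 was not tested. Of 9 erythroid and 12 pigment genes none was called, with sums between 99.2 and 199.7 CPM and between 27.2 and 78.9 CPM. Neural and glial markers summed to between 549 and 1037 CPM, with 1 of 27 higher and 1 lower, which is 7.41% called. From 0 to 1 were higher and 0 to 3 lower (most without entpd5a+ library 1) on leaving out 1 library. The stress response list had 1 of 70 higher and 0 lower, which is 1.43% called. From 0 to 2 were higher on leaving out 1 library, and 6 higher with the depth term. Its log2 differences were above 0 in 57 of 70 genes, against 9682 of 19039 over all genes tested, with a median of 1.06 for the list. The called gene GADD45A (ENSDARG00000104571) was 4.89-fold higher (adjusted p = 0.00896), a call lost on leaving out col9a2+ library 2.

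**Figure D4:**
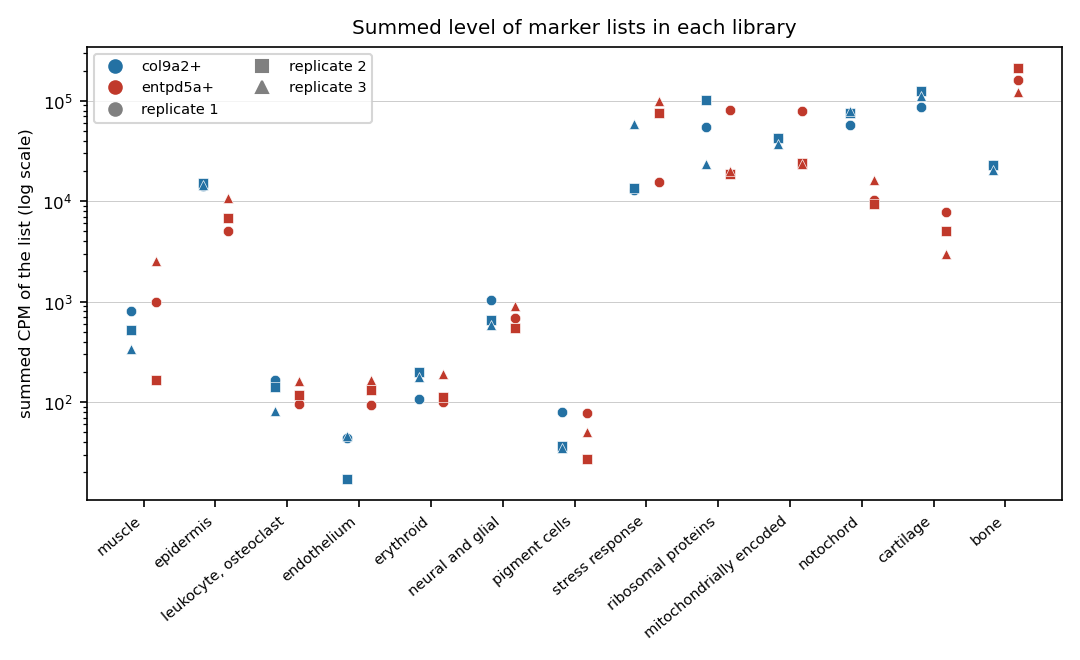
Summed CPM (log scale) of lists of marker genes in each of the 3 col9a2+ (blue) and 3 entpd5a+ libraries (red), with a marker shape per replicate. Endothelial sums lie between 17.1 and 45.7 CPM in col9a2+ and between 93.0 and 166.7 CPM in entpd5a+ libraries, and the stress response sum is high in col9a2+ library 3 and entpd5a+ libraries 2 and 3.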

How the data were processed

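Sheath cells were sorted by fluorescence, total RNA was prepared with a micro-scale column kit, and ultra-low-input libraries were made from it, per the labels' protocols. Each deposited file gives whole-number read counts for 1 library by Ensembl gene ID. HISAT2, HTSeq and the build GRCz10 are named in the submitters' processing notes, while versions and the strand setting are not given in the sources used here, so overlapping or antisense genes cannot be separated. Of 32266 IDs 26433 (81.92%) had a name in the name table. Names shared by several IDs are printed with the ID, and names in capitals lack the zebrafish paralog letter.

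The counts were taken into edgeR 4.0.16 under R 4.3.3. They were filtered with filterByExpr by population, scaled with TMM factors and fitted with a robust quasi-likelihood model over all 9 libraries (common dispersion 0.588). The contrast of entpd5a+ with col9a2+ was tested two-sided, with calls at 0.05 after Benjamini-Hochberg adjustment. Standard errors were obtained as the size of the log2 fold change over the root of F. Reads without molecular identifiers are not independent molecules, so limits from counts cover counting error only. In simulated counts for 18259 genes the test recovered 0% of 2-fold, 12% of 4-fold, 66% of 8-fold and 92% of 16-fold changes among 200 changed genes, with 1 false call.

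The comparison, the 36 gene lists and the rule for named genes were chosen with earlier results of these data known. Of 2147 list entries 1948 matched a name. The rule names the sort genes, and the called genes with the 15 largest rises and 15 largest falls whose mean reaches 20 CPM in the higher population, that do not overlap and have a unique symbol. It adds up to 3 called members per list and direction with the smallest adjusted p, or the 2 smallest p values of a list with no call, the 10 smallest adjusted p values per direction, and the 10 genes with the highest level per population. These genes were named outside it, after their values were seen: ACKR3 (ENSDARG00000058179), ACP5, ADORA2B, BTK, CADM1 (ENSDARG00000031075), CADM1 (ENSDARG00000042677), CD81 (ENSDARG00000022437), CDH11, CEMIP, CLU, CXCR4 (ENSDARG00000041959), CYP27C1, DLX2 (ENSDARG00000017174), DLX3, DLX5, DLX6, EEIG1 (ENSDARG00000102566), FAH, FAM20C, FDPS, FLI1, GCH1, GSTZ1, HGD, HPD, HYAL4, IGFBP3, INHBB (ENSDARG00000040777), LSS, MFSD2B, MNX1, MXRA8 (ENSDARG00000062129), MXRA8 (ENSDARG00000062222), MYO1D, NFATC1, NOG (ENSDARG00000058819), NRP1, NRP2 (ENSDARG00000038446), NRP2 (ENSDARG00000096546), PAX1 (ENSDARG00000073814), PAX9, PCBD1, PDGFRA, PLXNA3, PTH1R, PTPN6, PTS, QDPR (ENSDARG00000040190), QSOX1, RECK, ROBO2, SCUBE2, SPR (ENSDARG00000004406), TAT, TBXT, TM7SF2, TMEM97, TRAF6, and2, cdh5, cldn3c, csf1ra, cxcl12b, enam, fam20ca, foxd2, kdrl, krt15, krt4, odam, ptprc, sema3aa, sphk2, spns2, spp1, tnfrsf11b, tnfsf11, vgll2b. Other settings tried were no count filter, a floor of 10 CPM on the mean, size factors by RLE or upper quartile, DESeq2 1.42.0, the 6 libraries alone, a replicate block, the depth group as a term or each depth group alone, a minimum fold of 1.5, and each library left out. Some genes that the rule names are not reported here. Promoter sequences were not used here, so no motifs were counted.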

Additional observations from a re-analysis of the deposited data

How the results depend on the processing

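The 955 calls, 510 higher and 445 lower, stayed within 1.5 times under RLE and upper-quartile factors, both count filters, the 6 libraries alone and the depth term. They came to 632 with a minimum fold of 1.5, 290 of them lower, and to 2305 with DESeq2, 1188 higher and 1117 lower. Leaving out 1 library gave 353 to 994 calls, 186 to 529 higher and 167 to 465 lower. The 5 shallower libraries alone gave 202 calls, 65 higher and 137 lower, and the 4 deeper ones 39, 5 higher and 34 lower, in fits of fewer samples. The share of calls that were higher was thus 32.2% and 12.8% there against 53.4% overall. All 955 genes kept their direction in every edgeR setting that tested them. They were called on these same libraries, so the shared direction is no separate support. Of 247 called among 303 named genes, 231 lost the call within the deeper libraries, 175 within the shallower ones and 35 with the minimum fold.

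With the replicate number as a replicate block, 1378 genes were called, 774 higher and 604 lower, and 907 of the 955 were kept. The labels do not say whether the numbers pair the libraries. Same-numbered col9a2+ and entpd5a+ libraries had correlations of their deviations across genes of 0.205, -0.106 and 0.198. These values cannot decide it, because in replicate 2 the col9a2+ library is of the shallower group and the entpd5a+ library of the deeper one. Under that block LSS did not pass (adjusted p = 0.0611) and NFATC1 did (0.0208). The motif counts planned for promoters, with their alternative on the given strand alone, were not run.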
